A study of Rattus norvegicus with 8 samples.

Results

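Transcripts of the complement system were followed in primary rat chondrocytes, for 9 genes that encode activating proteases, the central component and inhibitors of the cascade. Every probe set, a group of probes read as 1 measurement, whose annotation names only 1 of the 9 genes was taken. This gave 8 probe sets for 7 genes out of 31042 tested on the array, namely 1 each for C1r, C1s, C3, C4bpa, Cfi and Serping1 and 2 for Cd55. C2 and Cfb had no probe set of their own, and the 4 probe sets annotated to both of them are described beside the 8 without being counted among them.

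Cells came from the femoral condyles of Sprague Dawley rats 1 day old, and were grown in monolayer and kept without serum overnight. They were pretreated for 30 min with U0126, which inhibits the kinases MEK1/2 upstream of ERK1/2, or with its vehicle DMSO, and then given TNFα at 30 ng/ml or its vehicle BSA for 24 h. The groups were U0126 followed by TNFα, DMSO followed by TNFα (called TNFα below), U0126 followed by BSA (called U0126) and DMSO followed by BSA (called DMSO), so that every group received an agent of the first step and of the second. Each of the 4 groups was measured once in each of 2 independent experiments, giving 8 Affymetrix RAT230_2.0 arrays. Values are intensities on a linear scale after each array was centred on its median, and folds were taken within an experiment. Detection calls were not used here, so dim values may be background, and an intensity says nothing on the amount of 1 transcript relative to another. In RNA of whole cultures, fewer cells of a type and less RNA per cell cannot be told apart.

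Complement is a cascade of serum proteins in which proteases activate one another and converge on the cleavage of C3, whose fragments mark surfaces and recruit leukocytes. In the classical route the proteases C1r and C1s act within the first complex and cleave C4 and C2, and in the alternative route factor B (Cfb) supplies the protease. Inhibitors act at each step. The liver makes most circulating complement, but cells of the joint, chondrocytes among them, are known to make several components, and TNFα is known to raise some of them in other cells. The cells are labelled chondrocytes, and the 9 measured chondrocyte markers, Col2a1 and Acan among them, had intensities between 5189 and 32103 on the 8 arrays. The 4 measured hepatocyte markers gave 0 calls in every comparison, which does not bear on whether such cells were present. Their intensities ran between 78 and 412, a range that also holds every value of C4bpa and Cfi.

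With TNFα, transcripts of both classical proteases, of C3 and of the inhibitors C4bpa and Cd55 rose over DMSO. A probe set was called when its p from limma, adjusted by the Benjamini-Hochberg method over all 31042 probe sets with the experiment as a block, was under 0.05. By this rule 5 of the 8 probe sets rose and 0 fell, while 3.41% of all probe sets rose and 1.78% fell. The 3 others, the second Cd55 probe set, Serping1 and Cfi, did not pass. The median log2 fold change of the 8 was 1.06, and that of all probe sets was -0.02. C1s and C4bpa are among the genes that the study itself picked from these arrays, so their direction here is not independent evidence. The whole list of genes was also chosen with earlier results of these data known. Its counts set beside all probe sets, here and below, are therefore a description and not independent evidence for any of its genes.

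C1r, the protease that activates C1s, had intensities, for experiments 1 and 2 in turn, of 10138 and 12633 with U0126 and TNFα, 13295 and 14267 with TNFα, 3357 and 7752 with U0126, and 3266 and 7475 with DMSO. All 4 arrays with TNFα lay above all 4 without it, and experiment 2 was higher than experiment 1 most clearly where TNFα was absent. Over DMSO, TNFα gave 4.07-fold and 1.91-fold C1r (log2 fold change 1.48, standard error 0.28, limma adjusted p = 0.0328). C1s, the protease that cleaves C4 and C2, had 14833 and 15901 with U0126 and TNFα, 16469 and 15834 with TNFα, 6431 and 11402 with U0126, and 6350 and 10490 with DMSO. Its groups with and without TNFα did not overlap either. It was 2.59-fold and 1.51-fold higher with TNFα (log2 fold change 0.98, standard error 0.21, limma adjusted p = 0.0498). The C1r call was lost without the TNFα array of experiment 1, either DMSO array or either array of U0126 with TNFα (adjusted p up to 0.14 in limma). That of C1s was lost without any 1 array other than TNFα of experiment 2 (adjusted p up to 0.213 in limma). C1r and C1s are neighbours on rat chromosome 4, with 0 protein-coding genes between them.

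The promoters of C1r, C3 and C4bpa, which all rose with TNFα, were read from RefSeq (GRCr8). Promoters were present in the table for 5 of the 9 genes, and those of Cfi and Cd55 are not shown because the whole 250 bases fall within the bounds of the gene. Capitals mark matches to the C/EBP motif TTGCNNAA on either strand. The C1r sequence is chr4:159098763-159099012 on the plus strand, the 250 bases before its start.
C1r: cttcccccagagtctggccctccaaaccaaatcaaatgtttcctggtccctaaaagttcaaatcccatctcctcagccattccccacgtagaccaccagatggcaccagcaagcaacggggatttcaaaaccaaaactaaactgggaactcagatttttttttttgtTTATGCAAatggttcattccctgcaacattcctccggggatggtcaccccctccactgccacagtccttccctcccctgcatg
The C3 sequence is chr9:2201340-2201589 on the minus strand, also 250 bases.
C3: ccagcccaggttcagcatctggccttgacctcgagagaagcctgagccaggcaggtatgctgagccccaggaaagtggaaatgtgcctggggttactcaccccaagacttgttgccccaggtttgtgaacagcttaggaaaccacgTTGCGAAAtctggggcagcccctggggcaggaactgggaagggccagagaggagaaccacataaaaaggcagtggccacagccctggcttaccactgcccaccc
The C4bpa sequence is chr13:44663553-44663721 on the minus strand, the 169 bases that lie outside the bounds of the gene.
C4bpa: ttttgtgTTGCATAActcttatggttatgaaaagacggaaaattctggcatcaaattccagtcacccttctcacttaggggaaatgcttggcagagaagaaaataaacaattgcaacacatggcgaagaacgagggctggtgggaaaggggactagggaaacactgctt
The match lies at bases -83 to -76 from the start in C1r, where it reads on the opposite strand, at -104 to -97 in C3 and at -243 to -236 in C4bpa. Cd55, which also rose, and Cfi held no C/EBP match. Their windows lie wholly within the bounds of the gene, so a lack of matches there says nothing on the bases outside it. The C/EBP motif is found in 9.22% of all 33469 promoter windows of this length in the table. None of the 5 promoters held a match, on either strand, to the NF-κB motif (in 4.53% of all windows), TTCNNNGAA for STAT (7.67%), the interferon response motif (3.41%), GCGNGGGCG for EGR (4.29%) or TGANTCA for AP-1 (6.34%), and no match overlapped another. A match is a run of letters, and binding was not measured.

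C3 had the largest response of the 8 probe sets. Its intensity was 12774 and 14183 with U0126 and TNFα, 17340 and 17912 with TNFα, 656 and 3578 with U0126, and 1441 and 4732 with DMSO. The 4 arrays with TNFα were again all above the 4 without, and the low arrays differed far more between the experiments than the high ones. The folds of TNFα over DMSO were 12.04 and 3.79 (log2 fold change 2.75, standard error 0.55, limma adjusted p = 0.0411). The C3 call was lost without the TNFα array of experiment 1, either DMSO array or either array of U0126 with TNFα, with an adjusted p of at most 0.186 in limma, and the log2 fold change then lay between 2.06 and 3.17.

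C2 and Cfb encode the proteases of the C3-cleaving complexes of the classical and alternative routes and are neighbours on chromosome 20, with 0 protein-coding genes between them. Of the 4 shared probe sets, 1389470_at had 5217 and 7754 with U0126 and TNFα, 10969 and 9448 with TNFα, 456 and 4406 with U0126, and 489 and 3667 with DMSO. Its folds of TNFα over DMSO were 22.44 and 2.58, and it did not pass the test (log2 fold change 2.93, standard error 0.80, limma adjusted p = 0.0841). Experiment 2 was 7.5 times experiment 1 with DMSO and 0.86 times with TNFα. Of the 4, 1 passed, 1393219_at, at 2.96-fold and 1.61-fold (log2 fold change 1.12, standard error 0.23, limma adjusted p = 0.0429). That call was lost without any 1 array other than TNFα of experiment 2, and then reached an adjusted p of 0.137 in limma. Which of C2 and Cfb these values belong to cannot be told apart.

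Among the inhibitors, C4bpa and Cd55 rose with TNFα. C4bpa, the alpha chain of the protein that binds C4b and limits the classical C3 convertase, had 148 and 150 with U0126 and TNFα, 274 and 210 with TNFα, 108 and 113 with U0126, and 107 and 113 with DMSO. TNFα gave the highest pair, U0126 with TNFα lay between, and the arrays without TNFα lay between 107 and 113. These values were dim, with a mean level at percentile 25.1 of all probe sets. The folds of TNFα over DMSO were 2.56 and 1.87 (log2 fold change 1.13, standard error 0.12, limma adjusted p = 0.00475), and the call held without any 1 array, at an adjusted p of at most 0.0448 in limma.

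Cd55, which speeds the decay of C3 convertases at the cell surface, was read by a pair of probe sets, and the experiments set its level apart. Probe set 1387951_at had 338 and 1326 with U0126 and TNFα, 320 and 1021 with TNFα, 195 and 873 with U0126, and 152 and 545 with DMSO. Groups therefore overlapped across experiments, but in each experiment DMSO was lowest and both groups with TNFα were above both without it. Over DMSO, TNFα raised it 2.10-fold and 1.87-fold (log2 fold change 0.99, standard error 0.11, limma adjusted p = 0.00638), a call that held without any 1 array at an adjusted p of at most 0.0485 in limma. The other, 1370406_a_at, had 237 and 671 with U0126 and TNFα, 216 and 430 with TNFα, 156 and 371 with U0126, and 141 and 231 with DMSO. Its order within each experiment was the same, at 1.53-fold and 1.86-fold with TNFα over DMSO, and it missed the threshold (log2 fold change 0.75, standard error 0.17, limma adjusted p = 0.0532). Cd55 and C4bpa lie close on chromosome 13, with 1 protein-coding gene between them.

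Serping1, the inhibitor of C1r and C1s, had 1433 and 2769 with U0126 and TNFα, 4391 and 5358 with TNFα, 638 and 2409 with U0126, and 1140 and 3822 with DMSO. The TNFα arrays were the highest in each experiment, yet DMSO of experiment 2 was close to TNFα of experiment 1. At 3.85-fold and 1.40-fold with TNFα over DMSO it did not pass (log2 fold change 1.22, standard error 0.36, limma adjusted p = 0.0971), and it passed only without the TNFα array of experiment 2 (limma adjusted p = 0.0200). Cfi, the protease that inactivates C3b and C4b, had 180 and 151 with U0126 and TNFα, 167 and 167 with TNFα, 174 and 163 with U0126, and 207 and 193 with DMSO. The DMSO arrays were the highest pair. Cfi did not pass at 0.81-fold and 0.87-fold with TNFα over DMSO (log2 fold change -0.26, standard error 0.08, limma adjusted p = 0.0970).

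The methods of the study require a change of 1.45-fold or more, the same way, in each experiment. By that rule 6 of the 8 probe sets exceeded DMSO with TNFα, against 1.65% of all probe sets. They were the 5 that limma called and the second Cd55 probe set. Of the shared C2 and Cfb probe sets, 2 of 4 passed it. A threshold of 2-fold left 1 of the 8, C3, against 0.593% of all probe sets, and 1.3-fold took in 7, with Serping1 added, against 2.8%.

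The question of the study's design was which responses to TNFα depend on MEK/ERK signalling, and it was read for these genes in both arms. When U0126 was present throughout, TNFα raised the Cd55 probe set 1387951_at over U0126 alone, by 1.74-fold and 1.52-fold (log2 fold change 0.70, standard error 0.11, limma adjusted p = 0.0425). It was the only 1 of the 8 that passed, with 0.831% of all probe sets higher in this comparison. The call was lost without either array of U0126 with TNFα, of U0126 or of DMSO, up to an adjusted p of 0.339 in limma, and without either TNFα array the count of calls was 3, with C3 and C4bpa added. C3 was at 19.46-fold and 3.96-fold in this arm and missed the threshold (log2 fold change 3.13, standard error 0.55, limma adjusted p = 0.0563). C1r was at 3.02-fold and 1.63-fold (limma adjusted p = 0.135) and C1s at 2.31-fold and 1.39-fold (limma adjusted p = 0.151). C4bpa was at 1.37-fold and 1.32-fold (log2 fold change 0.43, standard error 0.12, limma adjusted p = 0.179).

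By the rule of the methods, 1 of the 6 probe sets higher with TNFα stayed below 1.45-fold over U0126 in both experiments, C4bpa. Of all probe sets higher with TNFα by this rule, 108 of 513, or 21.1%, did so, a share near that of 1 in 6. The study lists C4bpa for this pattern and C1s among the genes regulated independently of MEK/ERK, so the count is a description. C1r, C3 and the 2 Cd55 probe sets passed 1.45-fold with U0126 in both experiments, and C1s passed in exactly 1 of them. At thresholds of 1.3-fold and 2-fold the count below it was 0. Of the log2 response to TNFα, C4bpa kept 38.1% with U0126, Cd55 70.9% in its probe set 1387951_at, C1r 77.7%, C1s 85.6% and C3 114%. Such shares were taken only where limma called the response to TNFα. The second Cd55 probe set, 1370406_a_at, was not called, and its log2 response was 0.75 without U0126 and 0.73 with it. The shared C2 and Cfb probe set that limma called with TNFα, 1393219_at, kept 42.3%.

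None of these differences in response passed the test of the difference itself. The interaction, the log2 response to TNFα with U0126 minus that without it, was called for 0 of the 8 and 0 of all probe sets, while 9.13% of all probe sets and 1 of the 8 had an unadjusted p under 0.05. That one was C4bpa, at -0.70 (95% interval -1.09 to -0.31, limma adjusted p = 0.499). For Cd55 probe set 1387951_at the interaction was -0.29, with a 95% interval of -0.67 to 0.09. In 1370406_a_at it was -0.02, with a 95% interval of -0.59 to 0.54. The intervals of C1r (-1.25 to 0.60), C1s (-0.86 to 0.57) and C3 (-1.48 to 2.24) were wider and included 0, which does not show that the response was the same in both arms. The interactions of the 4 shared C2 and Cfb probe sets ran between -0.76 and -0.33, with 0 calls.

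On TNFα-treated cells, U0126 left 0 of the 8 probe sets past the test, of 0.254% called among all probe sets in either direction, and 2 had an unadjusted p under 0.05, as did 12.7% of all probe sets. Both are of inhibitors, as are 5 of the 8 probe sets, and both had lower levels when U0126 preceded TNFα. Serping1 was at 0.33-fold and 0.52-fold (log2 difference -1.28, standard error 0.36, limma adjusted p = 0.224). Without TNFα, Serping1 was lower with U0126 too, at 0.56-fold and 0.63-fold of DMSO, and its interaction was -0.53 (95% interval -1.73 to 0.66). C4bpa was at 0.54-fold and 0.71-fold (log2 difference -0.69, standard error 0.12, limma adjusted p = 0.0850). Both passed without the TNFα array of experiment 2 (limma adjusted p = 0.0396 for Serping1 and 0.0127 for C4bpa), and Serping1 also in a fit of only the 4 arrays compared (limma adjusted p = 0.0350). Cd55 lay on the other side, at 1.06-fold and 1.3-fold in 1387951_at and 1.10-fold and 1.56-fold in 1370406_a_at, with 95% intervals of -0.04 to 0.50 and -0.01 to 0.79 on the log2 scale.

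Without TNFα, U0126 was not followed by a call in the 8 probe sets either, of 0.058% called among all probe sets in either direction, and 3 had an unadjusted p under 0.05, as did 13.3% of all probe sets. In 1387951_at of Cd55, U0126 over DMSO gave 1.28-fold and 1.60-fold (log2 difference 0.52, standard error 0.11, limma adjusted p = 0.230), and in 1370406_a_at 1.10-fold and 1.60-fold. Cfi was at 0.84-fold and 0.85-fold (limma adjusted p = 0.3). Serping1 was at 0.56-fold and 0.63-fold (log2 difference -0.75, standard error 0.36, limma adjusted p = 0.411), and passed only in a fit of the 4 arrays compared (limma adjusted p = 0.0453). C3 was at 0.46-fold and 0.76-fold with a 95% interval of -2.08 to 0.55 on the log2 scale. C1r, C1s and C4bpa were between 1.00-fold and 1.09-fold of DMSO in both experiments. The 8 measured genes of ERK output, among them Egr1 and Dusp6, gave 0 calls with U0126 against DMSO and a median log2 difference of -0.36. Egr1 was at 0.35-fold and 0.36-fold (limma adjusted p = 0.0527), Etv5 at 0.32-fold and 0.47-fold and Dusp6 at 0.58-fold and 0.64-fold (limma adjusted p = 0.148 for both). The others ran between log2 differences of -0.42 for Spry2 and 0.06 for Phlda1 with U0126 against DMSO. With U0126 and TNFα against DMSO, Egr1, Etv5, Dusp6 and Spry4, 4 of the 8, fell. In that comparison 969 of all 31042 probe sets were called, 673 of them higher.

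With both agents against DMSO, both Cd55 probe sets rose and the 6 others did not pass, where 2.17% of all probe sets rose. Probe set 1387951_at was 2.22-fold and 2.43-fold higher (log2 fold change 1.22, standard error 0.11, limma adjusted p = 0.00464) and 1370406_a_at 1.68-fold and 2.90-fold higher (log2 fold change 1.14, standard error 0.17, limma adjusted p = 0.0210). The call of 1387951_at was lost without either array of U0126 with TNFα or DMSO of experiment 2 (limma adjusted p up to 0.0743), and that of 1370406_a_at without U0126 with TNFα or DMSO of experiment 2 (up to 0.151). C3 was at 8.87-fold and 3.00-fold (limma adjusted p = 0.0776) and Serping1 at 1.26-fold and 0.72-fold (limma adjusted p = 0.930). Without either TNFα array 5 of the 8 passed, C1r, C1s and C4bpa beside both Cd55 probe sets, and the cause was not tested. The comparisons with DMSO share its arrays.

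Set by role, the activating proteases C1r and C1s had log2 fold changes of 1.48 and 0.98 with TNFα over DMSO and both rose, while the 5 probe sets of inhibitors ran between -0.26 and 1.22, with a median of 0.99, 2 rises and 3 without a call. The 4 shared C2 and Cfb probe sets ran between 0.64 and 2.93, with a median of 1.04 and 1 rise. With U0126 and TNFα over U0126 the proteases were at 1.15 and 0.84 and the inhibitors between -0.03 and 0.73, with a median of 0.68, and the shared probe sets had a median of 0.48. Between U0126 with TNFα and TNFα the proteases were at -0.28 and -0.07 and C3 was at -0.39. The shared probe sets ran between -0.68 and -0.23, and the 5 of inhibitors between -1.28 for Serping1 and 0.39 for Cd55. The difference between proteases and inhibitors was not tested, since it rests on 2 and 4 genes.

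The level without TNFα differed between the experiments for most of these genes. With DMSO, experiment 2 was at least 1.45-fold above experiment 1 for 6 of the 8 probe sets, against 4.44% of all probe sets, and with U0126 also for 6, against 4.88%. With U0126 and TNFα it was 3, against 3.83%, and with TNFα 2, against 4.16%. Experiment 2 over experiment 1 was 1.03 with TNFα and 3.28 with DMSO for C3, 1.07 and 2.29 for C1r, 0.96 and 1.65 for C1s, and 1.22 and 3.35 for Serping1. Cd55 kept the gap with TNFα too, at 3.19 with TNFα and 3.58 with DMSO in 1387951_at. The exceptions were C4bpa, at 0.77 and 1.05, and Cfi, at 1.00 and 0.93. The fold of TNFα over DMSO was at least 2 times larger in experiment 1 for C3, Serping1 and C1r, as for 0.461% of all probe sets.

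Some markers of chondrocytes and of other cells moved with the experiment or with TNFα, and others did not. The 4 measured markers of endothelium and the 3 of T cells gave 0 calls with TNFα over DMSO. Of endothelium, Tek was higher in experiment 2, at 157 and 465 with TNFα and 150 and 384 with DMSO. Pecam1, Kdr and Vwf stayed between 72.7 and 169 on the 8 arrays. The summed intensity of the 9 chondrocyte markers was 142060 and 94939 with TNFα and 184894 and 121939 with DMSO in experiments 1 and 2, and 6 of the 9 fell with TNFα. The 5 markers of fibroblasts or synovial lining summed to 68290 and 83851 with TNFα and 63974 and 81783 with DMSO, and 1 of them, Pdpn, or podoplanin, rose with TNFα. Pdpn had 11039 and 9874 with TNFα and 6513 and 7514 with DMSO (log2 fold change 0.58, limma adjusted p = 0.0291). Thy1 had 1173 and 1183 with TNFα and 1550 and 1666 with DMSO, and Dcn, the matrix proteoglycan decorin, had 8842 and 15228 with TNFα and 5095 and 12517 with DMSO, both without a call. The 14 macrophage and leukocyte markers summed to between 4223 and 5829 on the 8 arrays. Of these, Cd68 rose with TNFα and the other 13 did not pass, Ptprc was between 60.6 and 69.7 throughout, and Adgre1 had 35.3 and 340 with TNFα and 30.0 and 201 with DMSO. The 10 measured interferon-induced genes summed to 12180 and 19084 with TNFα and 3824 and 6755 with DMSO. Of these, 5 rose with TNFα, where 3.41% of all probe sets rose. The 5 others, Irf7, Mx1, Mx2, Isg15 and Oas1a, did not pass. The part of these cells in the levels of the complement genes was not tested.

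Of 50 other complement genes, 37 were measured, each read only by its probe set of highest mean level. Masp1 has 3 probe sets and Clu 2, and the others are not given here. With TNFα over DMSO 2 of the 37 genes rose, 1 fell and 34 did not pass, with a median log2 fold change of -0.08. Of all probe sets, not reduced to 1 per gene, 3.41% rose and 1.78% fell. Clu, or clusterin, which binds the terminal complement complex, had 10543 and 10333 with U0126 and TNFα, 16984 and 13411 with TNFα, 6367 and 6821 with U0126, and 6480 and 7822 with DMSO. It was highest with TNFα, where it rose (log2 fold change 1.08, standard error 0.13, limma adjusted p = 0.00828), and with U0126 and TNFα it was lower than with TNFα by a log2 difference that did not pass (-0.53, limma adjusted p = 0.187). Masp1, a protease of the lectin route, had 1594 and 1787 with U0126 and TNFα, 1860 and 1757 with TNFα, 955 and 1130 with U0126, and 929 and 1180 with DMSO. Its arrays with TNFα lay above all those without it. Masp1 rose with TNFα over DMSO (log2 fold change 0.79, standard error 0.10, limma adjusted p = 0.0102), with U0126 and TNFα over U0126 (0.70, limma adjusted p = 0.0302) and with both over DMSO (0.69, limma adjusted p = 0.0219).

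Susd4, a membrane protein known to inhibit complement, fell with TNFα by 0.40 on the log2 scale (standard error 0.06, limma adjusted p = 0.0154). Cd59b, an inhibitor of the terminal complex, and Vtn, or vitronectin, were lower with TNFα than with DMSO at an unadjusted p under 0.01 without passing (-0.32 and -0.24). Cfd, the protease that cleaves factor B, had 411 and 3456 with U0126 and TNFα, 817 and 5105 with TNFα, 455 and 4066 with U0126, and 607 and 4514 with DMSO, so it too was far higher in experiment 2. Its log2 difference between U0126 with TNFα and TNFα was -0.78 (standard error 0.12, limma adjusted p = 0.0713). With U0126 and TNFα over U0126, Masp1 was the 1 gene of the 37 that passed, where 0.831% of all probe sets rose. Between U0126 with TNFα and TNFα 0 passed, of 0.254% among all probe sets, and between U0126 and DMSO 0, of 0.058%. In U0126 with TNFα against DMSO, Masp1 was again the 1 that passed, where 2.17% of all probe sets rose, and Cfd, Clu and Susd4 had an unadjusted p under 0.01. The probe set annotated to both C4b and C4a had 1307 and 2728 with U0126 and TNFα, 1799 and 2811 with TNFα, 1136 and 3698 with U0126, and 1098 and 2634 with DMSO, without a call (limma adjusted p = 0.273 with TNFα over DMSO). Leaving out single arrays was not tried for the genes of this wider list.

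For the genes that rose, those of most like pattern were found among 1139 probe sets of other single genes, by Pearson's r over the 8 arrays after the mean of each experiment was removed. The arrays share their experiments and treatments, so r is a description. C1r was most like Pla2g2a, a secreted phospholipase (0.998), Sdc4, a cell surface proteoglycan (0.998), and C1s (0.995), and C1s was most like Sdc4 (0.997), Pla2g2a (0.997) and C1r (0.995). C3 was most like the growth factor Bmp2 (0.997), the acute phase protein Saa3 (0.986) and the receptor S1pr3 (0.984). C4bpa was most like the plasminogen activator Plat (0.998), the phosphodiesterase Pde4b (0.996) and the zinc transporter Slc39a14 (0.995). Cd55 was most like the nuclear receptor Ppard (0.993), the keratin Krt8 (0.983) and Tom1l1 (0.983). The NF-κB targets used as a check, Nfkbia and Tnfaip3 among them, rose in 8 of 8 cases with TNFα over DMSO, where 3.41% of all probe sets rose. They also rose in 8 of 8 with U0126 and TNFα over U0126, where 0.831% rose.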

How the data were processed

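The values deposited by the authors are 1 linear intensity per probe set and array, with RMA named in the submitters' processing notes. The methods describe GeneSpring, division by the 50th percentile of each chip and by DMSO, neither of which the values show, as the array medians lie between 365.1 and 378.2. Of 31099 probe sets, 57 controls were left out. Log2 values were centred on each array's median and fitted with limma 3.58.1 in R 4.3.3, with terms for treatment and experiment (3 residual and 3.913 prior degrees of freedom), over 31042 probe sets. Python 3.11.15, numpy 2.4.6 and pandas 2.3.3 made the tables. The number of arrays limits the precision.

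The replicate number, which the labels give as a biological replicate, was the block. The deviations of arrays with the same number correlated at 0.728 to 0.829. On simulated data with this design limma called 89 of 100 simulated 1.45-fold responses to TNFα and 100 of 100 of 2-fold. There were 26 calls among 30842 without a response, and for the interaction 11 of 50 and 49 of 50. The simulated responses fell on probe sets drawn at random, with an equal gap between experiments in every group. For C3 that gap was 3.28 with DMSO and 1.03 with TNFα, so these counts do not give the power for the complement genes.

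Names come from the array annotation of 2016 (20826 probe sets with 1 symbol, 436 with several, 9780 with none). The named genes are the 9 genes with all their probe sets, and from the wider list the called genes and those with an unadjusted p under 0.01. A gene of the wider, marker or check lists was read by its probe set of highest mean log2 value. Likeness used probe sets whose SD was at least 0.3. The members and lists were chosen with earlier results of these data known. The alternatives were fits with quantile-normalized or uncentred values, a filter that removed the dimmest 40 percent, a trended or robust prior variance, no block, only the 4 arrays compared, genes in place of probe sets, leaving out each array, and fold thresholds of 1.3 and 2. Chromosome positions come only from RefSeq, since the array annotation names no genome build. Promoter coordinates are from its promoter table, and gene bounds and neighbours from its gene records.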

Additional observations from a re-analysis of the deposited data

How the results depend on the processing

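Of the 8 probe sets, the number called with TNFα over DMSO was 5, and 6 with quantile-normalized or uncentred values, where the second Cd55 probe set was added. It was 4 of the 6 left by the filter. It became 3 with a robust prior variance, 0 with no replicate block and 3 in a fit of only the 4 arrays compared. The number also changed when single arrays were left out. With U0126 and TNFα over U0126 it was 1, and became 2 with a trended prior variance, 0 with no replicate block, 5 with only the 4 arrays, 2 with genes in place of probe sets, and 0 to 3 without 1 array. Between U0126 with TNFα and TNFα it was 0, and 1 with only the 4 arrays, and 0 to 2 without 1 array. With U0126 over DMSO it was 0, and 1 with only the 4 arrays. With both agents over DMSO it was 2, and 0 with no replicate block, 5 with only the 4 arrays, 1 with genes, and 0 to 5 without 1 array. The interaction gave 0 under every alternative run. The rule of at least 1.45-fold gave 6, 7 at 1.3-fold and 1 at 2-fold, where it gave 1.65%, 2.8% and 0.593% of all probe sets, and the count below it with U0126 was 1, and 0 at 1.3-fold and at 2-fold. The cause was not tested.

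No value called in either setting changed its direction, while 48 values that were not called changed sign without 1 array. Without the block, limma called 25 of all probe sets with TNFα over DMSO in place of 1611. C4bpa fell under the filter on the lowest 40 percent and could not be tested there, as did Cfi. With 2 arrays per group, leaving out 1 leaves a lone array that is assumed to vary like the others.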
